A study of Mus musculus with 8 samples.

Results

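The genes described here are 10 imprinted genes of fetal and early postnatal growth, H19, Meg3, Plagl1, Peg3, Mest, Grb10, Ndn, Cdkn1c, Dlk1 and Rtl1, out of 18656 genes with reads in cardiac RNA-Seq. They were chosen by name as a list of growth genes whose expression is known to decline after birth. The choice was made with earlier results of these data known. Gene identifiers were matched to mouse symbols. All 10 passed the filter on low counts, as did 15076 genes in all. Hearts were taken from 16-day-old C57BL/6 littermates of 4 genotypes, αKOγKO, αKOγWT, αHetγKO and αHetγWT, with 2 libraries per genotype and RNA of several hearts pooled in each library. In αKOγKO and αKOγWT mice both alleles of the estrogen-related receptor gene ERRα (Esrra) were deleted in the whole body. In αKOγKO and αHetγKO mice the floxed gene of the related receptor ERRγ (Esrrg) was deleted by Myh6-Cre, a transgene active in cardiomyocytes, so that other heart cells kept ERRγ. The reference genotype, αHetγWT, carried 1 deleted ERRα allele, and no genotype in this set had both ERRα alleles intact. The αKOγKO mice develop cardiomyopathy, so their hearts were diseased when taken. The Cre status of the γWT mice is not given in the sources used here. A single age was sampled, so the data compare genotypes at postnatal day 16 and hold no fetal or newborn level to set them against.

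In an imprinted gene the copy from 1 parent is expressed and the copy from the other parent is silenced by DNA methylation or by a noncoding RNA. H19, Meg3, Cdkn1c and, in most tissues, Grb10 are expressed from the maternal copy, and Plagl1, Peg3, Mest, Ndn, Dlk1 and Rtl1 from the paternal copy. Many paternally expressed genes promote growth of the fetus and many maternally expressed ones restrain it. In mice, a set of these genes is active together in growing organs and is turned down as growth slows, and Plagl1 and H19 have been described as regulators within this imprinted gene network. The counts carry no information on the parental copy, so loss of imprinting could not be looked for.

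The genes lie in 7 places of the genome (build mm10, the same coordinates as GRCm38, gene spans from RefSeq). H19 (chr7:142575530-142578146) and Cdkn1c (chr7:143458339-143461059) share the distal part of chromosome 7. Ndn (chr7:62348277-62349928) and Peg3 (chr7:6703892-6730462) lie in other clusters of that chromosome. Dlk1 (chr12:109452485-109463336), Meg3 (chr12:109540996-109571729) and Rtl1 (chr12:109564900-109604418) form a cluster on chromosome 12. Mest is at chr6:30733506-30748466, Plagl1 at chr10:13090832-13131694 and Grb10 at chr11:11930499-12037428.

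Promoter windows of RefSeq (GRCm38.p6), which run from 250 bases before to 50 bases after a gene start, were found for 7 of the 10 genes, in 11 windows. The bases before the start are printed for Meg3, Mest and Dlk1, because Meg3 and Mest moved with the loss of both receptors while Dlk1, in the cluster of Meg3, did not pass the test. Capitals mark CG pairs, the base pairs at which imprinted promoters can carry methylation, which was not measured here. No exon annotated by GENCODE lies within these stretches. Those of Mest and Dlk1 lie inside the RefSeq gene spans given above, before internal starts.
Meg3 (chr12:109540746-109540995, + strand): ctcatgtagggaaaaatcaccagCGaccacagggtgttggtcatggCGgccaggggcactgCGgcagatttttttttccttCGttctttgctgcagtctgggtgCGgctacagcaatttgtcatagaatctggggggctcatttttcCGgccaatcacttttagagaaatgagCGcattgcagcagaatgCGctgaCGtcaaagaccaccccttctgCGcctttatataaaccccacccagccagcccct
Mest (chr6:30737800-30738049, + strand): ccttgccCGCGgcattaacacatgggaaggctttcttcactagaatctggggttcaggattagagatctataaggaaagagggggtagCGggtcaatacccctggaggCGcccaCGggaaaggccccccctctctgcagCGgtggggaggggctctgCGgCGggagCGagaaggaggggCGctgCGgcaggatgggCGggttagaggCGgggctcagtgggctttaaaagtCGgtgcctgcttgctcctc
Dlk1 (chr12:109452573-109452822, + strand): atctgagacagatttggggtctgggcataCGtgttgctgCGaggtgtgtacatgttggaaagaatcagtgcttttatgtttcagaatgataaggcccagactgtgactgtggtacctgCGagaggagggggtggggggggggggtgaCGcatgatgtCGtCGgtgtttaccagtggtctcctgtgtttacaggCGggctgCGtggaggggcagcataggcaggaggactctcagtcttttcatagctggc
The whole windows of these 3 starts held 13, 17 and 9 CG pairs in the order Meg3, Mest and Dlk1, and the median over the 32851 windows of all genes was 7. Another start of Mest, at the beginning of its annotated span, had a window with 8 CG pairs.

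The windows were searched on both strands for the element that ERR proteins bind, TNAAGGTCA, for its core AGGTCA, which overlaps it, and for the Plagl1 motif GGGGCCCC. The ERR element was found in 1 of the 11 windows, against 1.28% of all windows, and the core in the same window only, against 16.3% of all windows. The match lay 141 bases before an internal start of Meg3, within the Meg3 gene, in reverse orientation at chr12:109545257-109545265. The 30 bases shown around it overlap 1 exon annotated by GENCODE. The Plagl1 motif, which reads the same on both strands, was found in 1 window, that of Peg3, against 1.08% of all windows. It lay 201 bases before the start at chr7:6730613-6730620, and the 30 bases shown around it overlap 3 annotated exons. Both matches are shown with their flanks, the motif in capitals.
Meg3 internal start (chr12:109545247-109545276, + strand): agggatggtgTGACCTTAAacaagtcattt
Peg3 (chr7:6730602-6730631, - strand): gactctgcttgGGGGCCCCtaacactgact
A match is a description of the letters in the window, and binding was not measured here.

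Several of the genes also hold microRNAs, which are cut from longer transcripts and which these libraries did not measure. A few mature sequences are printed to show what these transcripts carry, with the seed, bases 2 to 8, in capitals. H19 holds miR-675, Mest miR-335 and Meg3 miR-770 on the transcribed strand, and miR-127 and miR-433 lie opposite Rtl1, on the strand that gives an antisense RNA to it from the maternal copy.
miR-675-5p: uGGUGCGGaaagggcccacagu
miR-675-3p: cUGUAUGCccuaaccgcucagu
miR-335-5p: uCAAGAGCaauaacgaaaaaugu
miR-770-3p: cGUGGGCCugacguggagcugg
miR-127-3p: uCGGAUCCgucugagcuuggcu
miR-433-3p: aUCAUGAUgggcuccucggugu
The spans searched for microRNAs were those of GENCODE, which can differ from the RefSeq spans given above. The 20 mature microRNAs of RefSeq within them had 20 different seeds, so none could be grouped by a shared seed.

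Library depth was 28.2 to 36.8 M assigned reads (M, mega). The scaling factors of TMM, which correct for RNA composition, were 1.05 to 1.08 in αKOγKO and 0.966 to 0.997 in the other libraries. The targeted gene Esrra had 118 and 136 reads in αKOγKO and 119 and 84 in αKOγWT, against 2978 and 3483 in αHetγKO and 2962 and 3165 in αHetγWT. The other targeted gene, Esrrg, had 3012 and 3461 reads in αKOγKO, 1388 and 1193 in αKOγWT, 1174 and 1486 in αHetγKO and 1070 and 1055 in αHetγWT. Its reads thus ran against the γKO label, with Esrrg 2.27-fold higher in αKOγKO than in αHetγWT (log2 fold change 1.18 ± 0.09, edgeR adjusted p = 2.3e-05) and at 0.25 ± 0.09 in αHetγKO over αHetγWT (adjusted p = 0.992). The counts cover the whole gene and cannot separate the floxed part from the rest, so loss of ERRγ was not checked by these tables, and γKO below means libraries labelled so. Xist, the RNA of the inactive X chromosome of females, had 7142 reads in αKOγKO replicate 1 and 6 to 14 in every other library. The 2 libraries of a genotype differed by more than counting noise, with a chi-square per degree of freedom of 61.5 in αKOγKO, 16.5 in αKOγWT, 6.41 in αHetγKO and 7.003 in αHetγWT. Every p-value below rests on 2 pooled libraries per genotype, and nothing says which mice or litters went into which pool.

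Levels are given in RPKM, read counts scaled to gene length and to the total of the library, which can be compared between genes. In αKOγKO hearts the order by mean RPKM was H19 (95.5), Mest (74.0), Grb10 (55.6), Plagl1 (23.2), Meg3 (20.0), Ndn (16.9), Cdkn1c (8.65), Peg3 (7.24), Dlk1 (0.21) and Rtl1 (0.18). In αHetγWT hearts it was H19 (59.3), Grb10 (40.8), Cdkn1c (19.8), Mest (12.3), Ndn (10.6), Meg3 (9.36), Plagl1 (8.34), Peg3 (5.07), Dlk1 (0.30) and Rtl1 (0.061). Mest thus had rank 2 in αKOγKO and rank 4 in αHetγWT, and Cdkn1c rank 7 in αKOγKO and rank 3 in αHetγWT. Neighbours in this order whose libraries overlapped were Plagl1 with Meg3 and Dlk1 with Rtl1 in αKOγKO, and Mest with Ndn in αHetγWT. Among all genes, H19 ranked 740 in αKOγKO and 1125 in αHetγWT, so it was among the more abundant transcripts of the heart in both, while Dlk1 and Rtl1 had at most 74 and 45 reads in any library.

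With both receptors lost, 7 of the 10 genes were higher than in αHetγWT hearts and 1 was lower, by the edgeR quasi-likelihood test with a Benjamini-Hochberg adjusted p under 0.05. Mest, Plagl1, Meg3, H19, Ndn, Peg3 and Grb10 rose, Cdkn1c fell, and Dlk1 and Rtl1 did not pass. Changes were widespread in these hearts, with 42.2% of all tested genes past the threshold, 20.7% higher and 21.5% lower. The median log2 fold change of the 10 genes was 0.55, against 0.01 for all genes tested. The same 7 genes were above, and Cdkn1c below, in both αKOγKO libraries compared with all 6 libraries of the other genotypes. Over all tested genes 25.3% were above all 6 and 25.3% below. In RNA from whole hearts fewer cells of a type and less RNA per cell cannot be told apart.

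**Figure D1:**
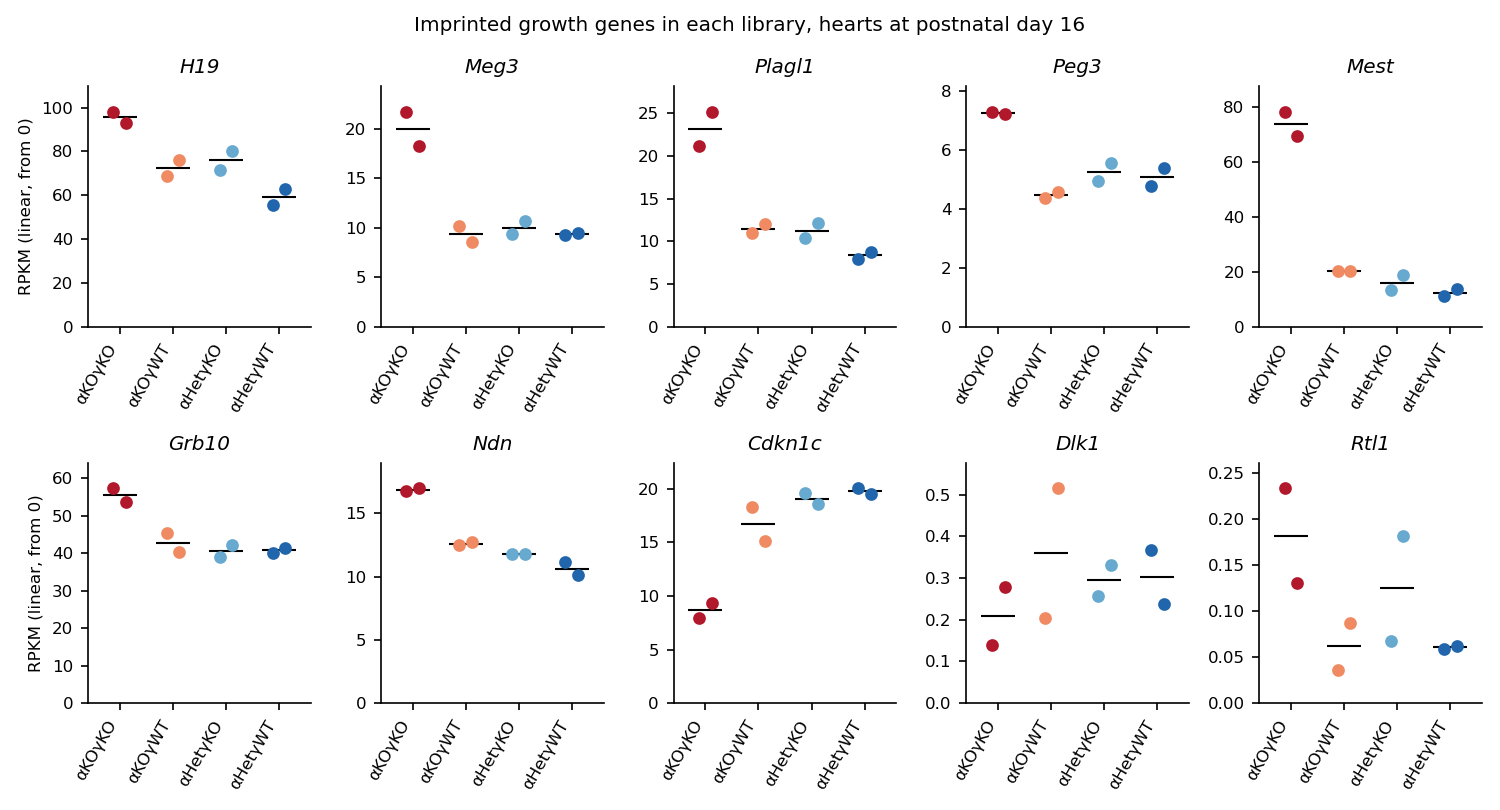
RPKM of each of the 10 genes on a linear axis from 0, with 1 panel per gene, points for the 2 pooled libraries of each genotype and a bar at their mean. Both αKOγKO libraries lie above the other 6 in H19, Meg3, Plagl1, Peg3, Mest, Grb10 and Ndn, below them in Cdkn1c, and overlap them in Dlk1 and Rtl1.

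Mest encodes an enzyme-like protein of the endoplasmic reticulum that is abundant in mesoderm and growing fat and is expressed from the paternal copy. It had 78.4 and 69.6 RPKM in αKOγKO hearts, 20.4 and 20.3 in αKOγWT, 13.4 and 18.8 in αHetγKO and 11.1 and 13.6 in αHetγWT. The lowest αKOγKO library was above every other library by a wide margin, and both αKOγWT libraries were above those of αHetγWT and αHetγKO. Mest was 5.51-fold higher in αKOγKO than in αHetγWT (log2 fold change 2.46 ± 0.16, SE, edgeR adjusted p = 8.96e-06). It had the largest change of the 10 genes in either direction, and across the 16 alternative settings its log2 fold change lay between 2.10 and 2.63. Its span overlaps Copg2 on the opposite strand, and where strand is not used in counting such reads cannot be told apart.

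Plagl1, also called Zac1, encodes a zinc finger transcription factor that in mouse tissues acts on other imprinted genes, among them H19 and Cdkn1c. Its RPKM values were 21.2 and 25.2 in αKOγKO, 10.9 and 12.0 in αKOγWT, 10.3 and 12.1 in αHetγKO and 7.96 and 8.72 in αHetγWT. The libraries of both single losses lay between those of αKOγKO and those of αHetγWT, with no overlap. In αKOγKO over αHetγWT the rise was 2.55-fold (log2 fold change 1.35 ± 0.11, edgeR adjusted p = 3.08e-05). Peg3, a paternally expressed gene for another zinc finger protein, is linked to growth and maternal behaviour in mice. Its values were 7.28 and 7.20 RPKM in αKOγKO, 4.37 and 4.57 in αKOγWT, 4.95 and 5.55 in αHetγKO and 4.76 and 5.39 in αHetγWT. Peg3 rose 1.31-fold in αKOγKO over αHetγWT (log2 fold change 0.39 ± 0.09, edgeR adjusted p = 0.0108). Without αHetγWT replicate 1 the difference for Peg3 was 0.29 on the log2 scale and no longer passed (edgeR adjusted p = 0.0938).

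Both long noncoding RNAs of the list rose. H19, which lies next to Igf2 and is among the most abundant RNAs of fetal muscle and heart, had 98.05 and 93.0 RPKM in αKOγKO, 68.8 and 76.05 in αKOγWT, 71.6 and 80.3 in αHetγKO and 55.7 and 62.9 in αHetγWT. As with Plagl1, the 4 libraries of the single losses lay between the other groups. The rise of H19 in αKOγKO over αHetγWT was 1.48-fold (log2 fold change 0.56 ± 0.10, edgeR adjusted p = 0.00175). Meg3, the maternally expressed RNA of the chromosome 12 cluster, had 21.7 and 18.3 RPKM in αKOγKO, 10.15 and 8.60 in αKOγWT, 9.38 and 10.7 in αHetγKO and 9.26 and 9.45 in αHetγWT. The 3 other genotypes overlapped for Meg3 and only αKOγKO stood apart, unlike for H19 and Plagl1, although the difference between these genes was not tested. Meg3 rose 1.97-fold in αKOγKO over αHetγWT (log2 fold change 0.97 ± 0.11, edgeR adjusted p = 0.00021).

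Grb10 and Ndn, which restrain growth, also rose. Grb10 is an adaptor that binds the insulin and IGF1 receptors and dampens their signal. It had 57.3 and 53.8 RPKM in αKOγKO, 45.4 and 40.3 in αKOγWT, 39.0 and 42.3 in αHetγKO and 40.15 and 41.4 in αHetγWT. The rise of Grb10 was 1.25-fold (log2 fold change 0.32 ± 0.08, edgeR adjusted p = 0.0112), and without αHetγWT replicate 1 the log2 fold change was 0.29 and did not pass (edgeR adjusted p = 0.0848). Ndn encodes necdin, a protein of the MAGE family known as a growth suppressor of neurons. Its values were 16.8 and 17.0 RPKM in αKOγKO, 12.5 and 12.7 in αKOγWT, 11.8 and 11.8 in αHetγKO and 11.1 and 10.1 in αHetγWT. Libraries of each genotype lay close together for Ndn, and it rose 1.46-fold (log2 fold change 0.54 ± 0.09, edgeR adjusted p = 0.00133).

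Cdkn1c encodes p57Kip2, an inhibitor of cyclin-dependent kinases that takes cells out of the cell cycle during development, and was the 1 gene of the list that fell. It had 7.98 and 9.33 RPKM in αKOγKO, 18.2 and 15.1 in αKOγWT, 19.6 and 18.6 in αHetγKO and 20.0 and 19.5 in αHetγWT. No αKOγKO library reached the lowest of the others. The fall of Cdkn1c in αKOγKO over αHetγWT was to 0.402-fold (log2 fold change -1.32 ± 0.11, edgeR adjusted p = 3.61e-05), and it lay between -1.43 and -1.11 over the 16 alternative settings.

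Dlk1 and Rtl1, paternally expressed neighbours of Meg3, had few reads. Dlk1 encodes a membrane and secreted protein with EGF-like repeats that holds back differentiation of fat cells, and had 24 and 48 reads in αKOγKO, 30 and 74 in αKOγWT, 34 and 52 in αHetγKO and 50 and 34 in αHetγWT. The groups overlapped for Dlk1, and αKOγKO hearts differed from αHetγWT hearts by -0.65 ± 0.51 on the log2 scale (edgeR adjusted p = 0.342). Rtl1, derived from a retrotransposon and needed in the mouse placenta, had 45 and 25 reads in αKOγKO, 6 and 14 in αKOγWT, 10 and 32 in αHetγKO and 9 and 10 in αHetγWT. αHetγKO replicate 2 had more Rtl1 reads than αKOγKO replicate 2, and the log2 fold change in αKOγKO over αHetγWT, 1.45 ± 0.63, did not pass (edgeR adjusted p = 0.0997). With SEs of this size, neither value shows that the genes did not differ. Transcripts of the opposite strand cross Rtl1, so its few reads need not come from Rtl1 itself.

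Loss of a single receptor gave no call in the list. In αKOγWT over αHetγWT 0 of the 10 genes passed, with 4 at an unadjusted p under 0.05 and 1.23% of all genes past the threshold (0.743% higher and 0.491% lower). In αHetγKO over αHetγWT 0 passed in edgeR, with 3 at an unadjusted p under 0.05, and 0.00663% of all genes, which is 1 gene, passed. DESeq2 called 2 of the list in αKOγWT and 0 in αHetγKO, and limma called 0 in both. The largest of these values were those of Mest, 0.73 ± 0.16 in αKOγWT (edgeR adjusted p = 0.0791) and 0.37 ± 0.16 in αHetγKO (adjusted p = 0.992), and of Plagl1, 0.46 ± 0.11 in αKOγWT (adjusted p = 0.108) and 0.42 ± 0.11 in αHetγKO (adjusted p = 0.799). Rtl1 had a larger value in αHetγKO, 1.03, but with an SE of 0.66. For H19 the values were 0.29 ± 0.10 in αKOγWT and 0.34 ± 0.10 in αHetγKO (edgeR adjusted p = 0.223 and 0.886). Mest and Plagl1 were the pair that DESeq2 called in αKOγWT (adjusted p = 0.000182 and 0.0138), and both also passed in edgeR there when αKOγKO replicate 1 (adjusted p = 0.0217 and 0.0227) or αKOγKO replicate 2 (adjusted p = 0.0224 and 0.0234) was left out of the shared estimate of spread. Single-loss values and those of the double loss share the αHetγWT libraries, so they are not independent of each other.

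**Figure D2:**
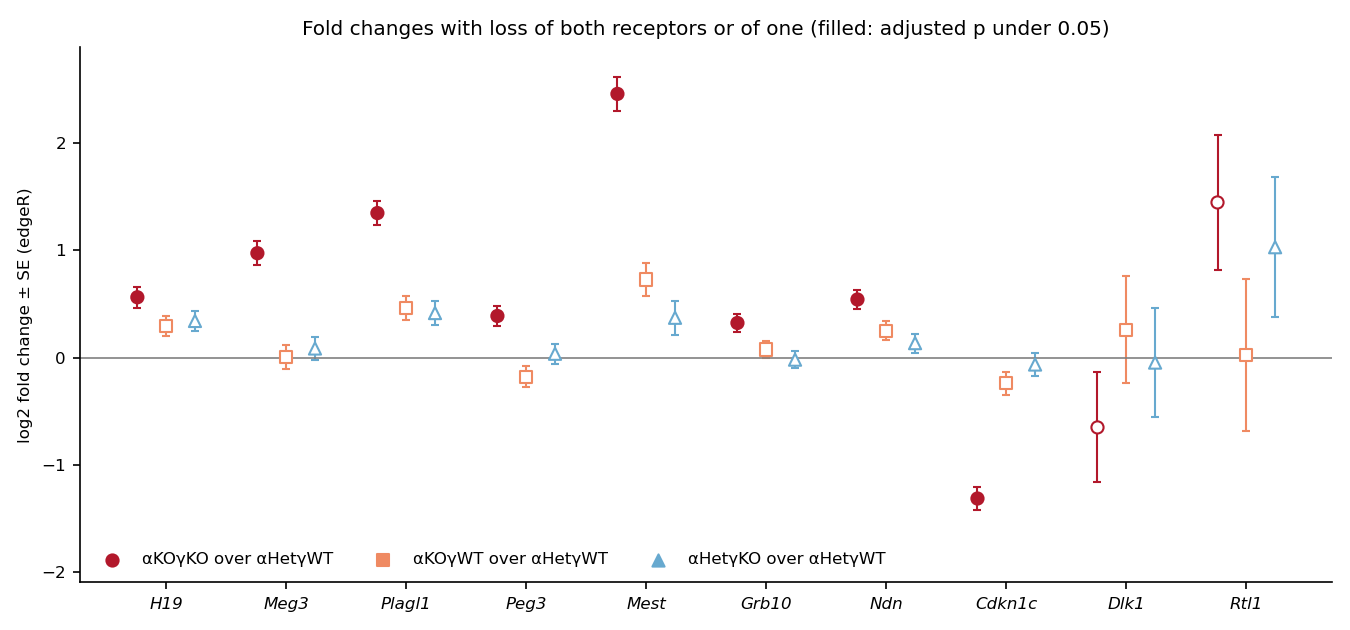
Log2 fold change against αHetγWT, with its SE as the error bar, for the 10 genes in αKOγKO, αKOγWT and αHetγKO. Filled symbols passed an edgeR adjusted p of 0.05, which 8 genes did in αKOγKO and 0 in either single loss, and the widest bars are those of Dlk1 and Rtl1.

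The double loss was also set against each single loss. In αKOγKO over αKOγWT, the effect of cardiac ERRγ loss in hearts without ERRα, 6 of the 10 genes were higher and 1 lower, where 34.8% of all genes passed, 16.6% higher and 18.2% lower. In αKOγKO over αHetγKO, 6 were likewise higher and 1 lower, where 38.3% of all genes passed, 18.7% higher and 19.6% lower. Mest was 3.32-fold higher in αKOγKO than in αKOγWT and 4.26-fold higher than in αHetγKO (log2 fold changes 1.73 ± 0.16 and 2.09 ± 0.16), and Cdkn1c was at -1.08 ± 0.11 and -1.25 ± 0.11 in the same comparisons. Meg3 rose by 0.97 ± 0.11 over αKOγWT and 0.89 ± 0.11 over αHetγKO on the log2 scale, and Plagl1 by 0.89 ± 0.11 and 0.93 ± 0.11. Against αKOγWT, the calls of Grb10 (0.25 ± 0.08, edgeR adjusted p = 0.0407) and Ndn (0.29 ± 0.09, adjusted p = 0.0307) were weak. That of Grb10 was lost when any library but αKOγWT replicate 1 or αKOγKO replicate 2 was left out (adjusted p = 0.0643 to 0.199). That of Ndn was lost without any 1 library of αKOγKO, αKOγWT or αHetγKO, and with DESeq2 (adjusted p = 0.0522 to 0.129). Against αHetγKO, Peg3 (0.35 ± 0.09, edgeR adjusted p = 0.0181) and Grb10 (0.34 ± 0.08, adjusted p = 0.0095) lost their calls without αHetγKO replicate 1 (adjusted p = 0.139 and 0.0876).

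H19 was the rising gene that did not pass against a single loss. It was at 0.27 ± 0.10 over αKOγWT (edgeR adjusted p = 0.0572) and 0.22 ± 0.10 over αHetγKO (adjusted p = 0.0999), although both αKOγKO libraries were above all others. The value over αKOγWT passed in 6 of the alternative settings, with adjusted p between 0.0103 and 0.0457. One of these left out αKOγKO replicate 2 (adjusted p = 0.0362). The value over αHetγKO passed with limma at either pseudocount (adjusted p = 0.0217 and 0.0210). Both limma runs are also among the settings in which the value over αKOγWT passed. They had no composition scaling, and put the median of all genes in αKOγKO over αHetγWT at 0.08 and 0.12, against 0.01 in edgeR.

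The interaction is the log2 difference αKOγKO minus αKOγWT less the log2 difference αHetγKO minus αHetγWT, and asks whether the losses add up on the log2 scale. It passed for 4 of the 10 genes, positive in 3 and negative in 1, where 17.5% of all genes passed, 6.77% positive and 10.7% negative. The values were 1.36 ± 0.22 for Mest (edgeR adjusted p = 0.00382), 0.88 ± 0.16 for Meg3 (adjusted p = 0.00609), 0.53 ± 0.13 for Peg3 (adjusted p = 0.0288) and -1.01 ± 0.15 for Cdkn1c (adjusted p = 0.00282). These 4 genes thus differed in αKOγKO by more than the sum of their single-loss values. For Plagl1 the interaction was 0.47 ± 0.15 (adjusted p = 0.0719), and it passed in 5 alternative settings (adjusted p = 0.0166 to 0.0491), among them DESeq2 (0.0436), both limma runs and without αKOγKO replicate 1 (0.0168). For H19 it was -0.07 ± 0.13 (adjusted p = 0.776). A value that misses the threshold does not show that the single losses of H19 add up. The call of Peg3 was lost without αHetγWT replicate 2 (adjusted p = 0.111), αHetγKO replicate 1 (0.126), αHetγKO replicate 2 (0.0594), αKOγWT replicate 1 (0.0961) or αKOγWT replicate 2 (0.0537).

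Neighbours in the same imprinted clusters moved in both directions. Of 31 such genes or transcripts, 23 were tested. In αKOγKO over αHetγWT, where 20.7% of all tested genes rose and 21.5% fell, 8 of these 23 rose and 3 fell (median log2 fold change 0.28). Without αHetγWT replicate 1, or without replicate 2, 5 of them passed. On chromosome 12 the noncoding RNAs downstream of Meg3 rose with it, Rian by 1.03 ± 0.17 (edgeR adjusted p = 0.00168) and Mirg, which hosts microRNAs, by 1.35 ± 0.27 (adjusted p = 0.00437). Rian had 25.2 and 16.7 RPKM in αKOγKO, 8.52 and 7.80 in αKOγWT, 9.92 and 10.9 in αHetγKO and 9.55 and 9.39 in αHetγWT. Mirg had 3.04 and 2.28 RPKM in αKOγKO, 0.824 and 0.793 in αKOγWT, 1.21 and 1.02 in αHetγKO and 1.02 and 0.897 in αHetγWT. Meg3, Rian and Mirg were each above the other 6 libraries in both αKOγKO libraries. Dlk1 (-0.65 ± 0.51) and Rtl1 (1.45 ± 0.63) of the same cluster were too imprecise to set against them, and no difference between genes of the cluster was tested. Mirg, Kcnq1ot1, Tssc4, Cd81, Begain and Ddc were singled out after their values were seen. So were, further on, Dcn, Lin28b, Myh7, Insr, Hes1, Heyl, Notch4, Jag1, Notch2, Notch3 and Hey2.

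**Figure D3:**
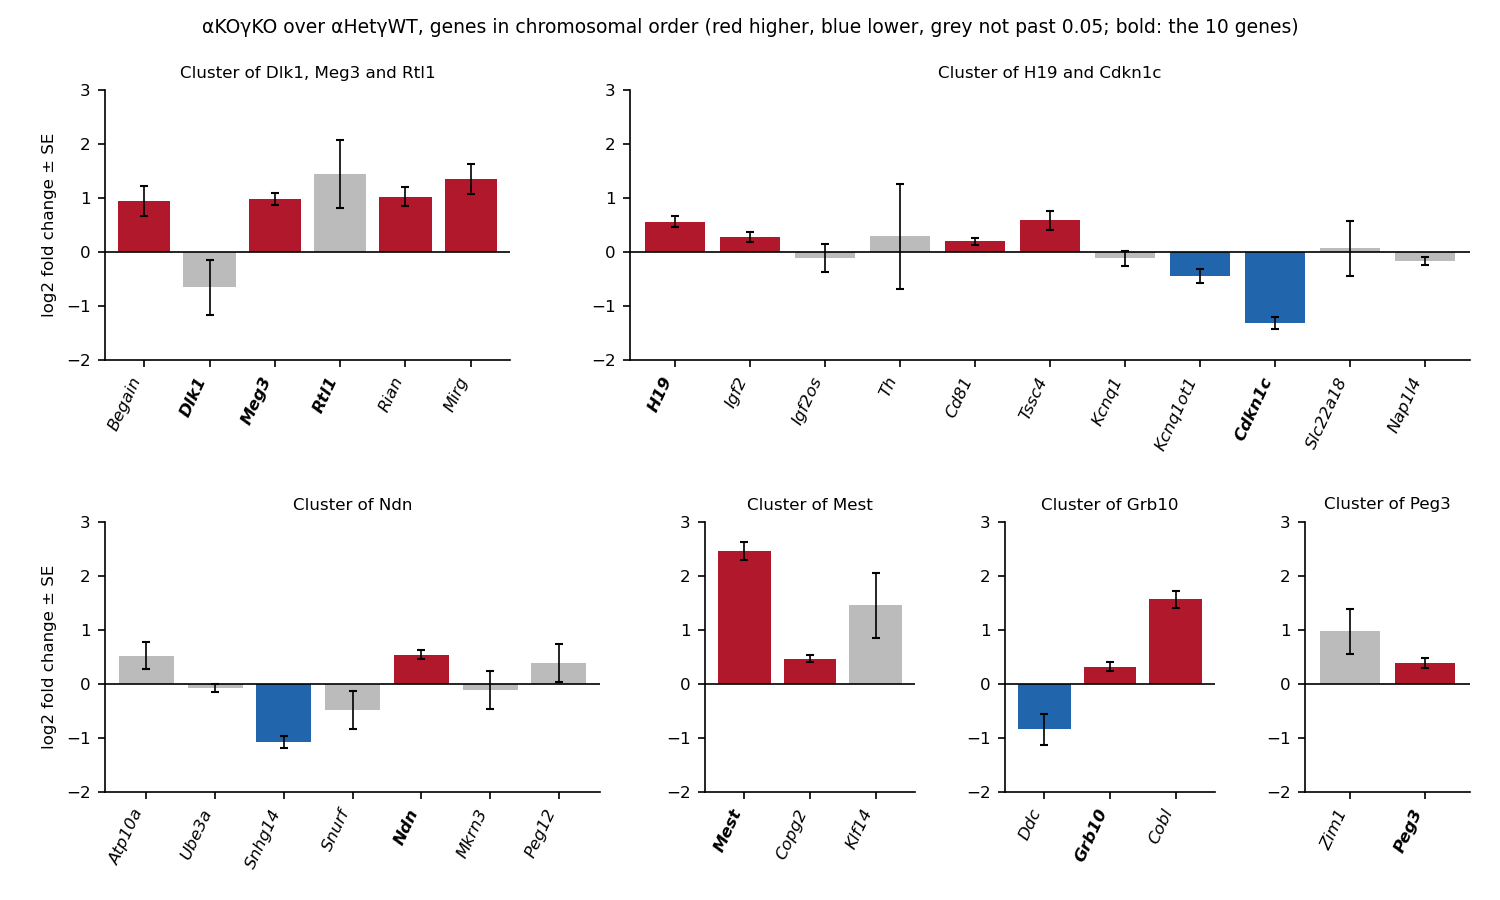
Log2 fold change with its SE, αKOγKO over αHetγWT, for tested genes of 6 imprinted clusters in the order they lie on their chromosome. Red bars passed as higher, blue bars as lower and grey bars did not pass. Genes of 1 cluster differ in direction, as with H19 and Cdkn1c, which have other tested genes between them.

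On distal chromosome 7, Igf2, the fetal growth factor beside H19, had 82.8 and 95.4 RPKM in αKOγKO, 79.5 and 83.3 in αKOγWT, 73.5 and 86.2 in αHetγKO and 64.3 and 70.1 in αHetγWT. The αKOγKO libraries of Igf2 overlapped those of the single losses. Igf2 was 0.28 ± 0.10 higher on the log2 scale in αKOγKO than in αHetγWT (edgeR adjusted p = 0.0443), a call that was lost when any library but αKOγKO replicate 1 was left out (adjusted p = 0.0506 to 0.249). Against the mean of the other 3 genotypes it was at 0.11 (adjusted p = 0.288), and over αKOγWT at -0.00 ± 0.10 (adjusted p = 0.992). Near Cdkn1c, the antisense RNA Kcnq1ot1, which silences the paternal copy of Cdkn1c, was lower by 0.45 ± 0.13 with 427 reads at most. It runs antisense to Kcnq1, and as the use of strand in counting is not given, its reads and those of Kcnq1 may be mixed. It lost its call without αHetγWT replicate 1 (adjusted p = 0.14), αHetγWT replicate 2 (0.0576) or αKOγKO replicate 1 (0.107), and with limma. Tssc4 and Cd81 of that cluster rose by 0.58 ± 0.17 and 0.20 ± 0.06 in αKOγKO over αHetγWT. Cd81 was higher still in αKOγWT over αHetγWT (0.36 ± 0.06, edgeR adjusted p = 0.0373), and was at -0.17 ± 0.06 in αKOγKO over αKOγWT (adjusted p = 0.0748).

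In the other clusters, Snhg14, the long RNA that runs antisense to Ube3a near Ndn, fell by 1.07 ± 0.10 on the log2 scale (edgeR adjusted p = 8.16e-05), in the opposite direction to Ndn. It had 6.35 and 5.91 RPKM in αKOγKO, 9.63 and 8.32 in αKOγWT, 11.9 and 12.6 in αHetγKO and 12.4 and 11.3 in αHetγWT. Cobl, which encodes an actin nucleator and lies beside Grb10, rose by 1.57 ± 0.16 (adjusted p = 0.000111), and Copg2, a coat protein gene that overlaps Mest, rose by 0.47 ± 0.07 (adjusted p = 0.000745). Ddc, on the other side of Grb10, was lower by 0.84 ± 0.28, and Begain, upstream of Dlk1, was higher by 0.94 ± 0.28. Begain, Ddc, Tssc4 and Cd81 each lost the call without αHetγWT replicate 2 (adjusted p = 0.133, 0.191, 0.118 and 0.0957) and without other single libraries.

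Of 7 further genes assigned to the imprinted gene network, 4 were higher and 0 lower in αKOγKO over αHetγWT (median 0.42). The 4 include Igf2, which was also counted among the cluster neighbours and whose call depended on the libraries used, as given above. In edgeR 42.2% of all tested genes passed, 20.7% higher and 21.5% lower. With limma on log2 RPKM all 7 passed, and with αKOγKO and αHetγWT alone 3 did. The limma runs had no composition scaling, and put the median of all genes at 0.08 and 0.12 (pseudocounts 1 and 0.1). Gnas, the gene of the stimulatory G protein subunit, rose by 0.90 ± 0.16, Slc38a4, a paternally expressed amino acid transporter, by 0.83 ± 0.11, and Sgce, which encodes epsilon-sarcoglycan, by 0.42 ± 0.08. Slc38a4 had 16.0 and 15.5 RPKM in αKOγKO and 6.43 to 8.28 in the other libraries. Decorin (Dcn), an abundant matrix protein of fibroblasts in the same list, was at 0.17 ± 0.10 (edgeR adjusted p = 0.22).

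Imprinted genes of other clusters showed no common direction. Of 23, 19 were tested, 3 rose and 4 fell (median -0.10). Nap1l5 rose by 1.76 ± 0.26, while Blcap fell by 1.30 ± 0.12, the organic cation transporter gene Slc22a3 by 1.67 ± 0.31 and Ppp1r9a by 0.61 ± 0.12. Taking the network genes, the cluster neighbours and these genes as 1 set, 48 of 60 were tested, 14 rose, 7 fell and 27 did not pass, to be read against the 42.2% of all genes past the threshold.

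**Figure D4:**
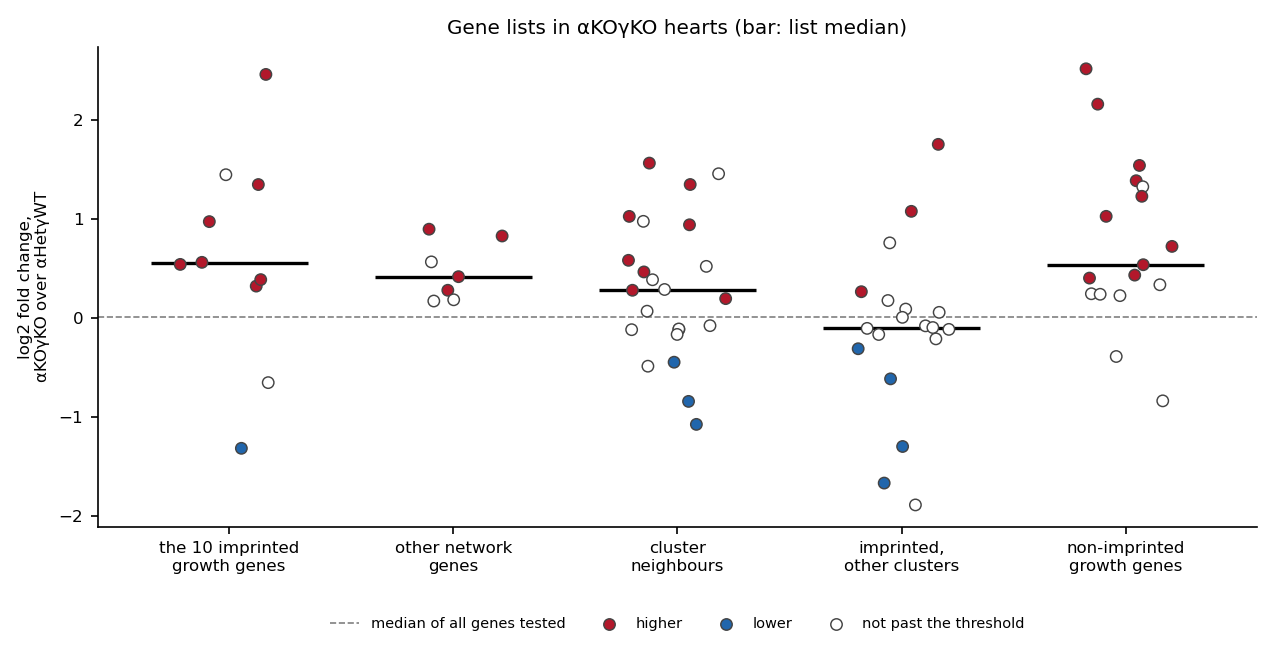
Log2 fold change of each tested gene, αKOγKO over αHetγWT, for the 10 genes, the other genes of the imprinted gene network, cluster neighbours, imprinted genes of other clusters and non-imprinted growth genes. Bars are list medians (0.55, 0.42, 0.28, -0.10 and 0.54), the dashed line is the median of all genes (0.01), and filled points passed the test.

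Non-imprinted genes that are high in fetal growth and low later were listed for comparison. Of 19, 17 were tested, 10 rose and 0 fell (median 0.54), where 20.7% of all tested genes rose and 21.5% fell. Ccnd2, a cyclin that drives entry into the cell cycle, rose by 1.39 ± 0.10, Igf2bp3 and Igf2bp2, which bind the mRNA of Igf2 and other transcripts, by 2.16 ± 0.18 and 0.72 ± 0.12, and the growth factor Ptn by 1.23 ± 0.16. Igf2bp3 had 2.50 and 2.33 RPKM in αKOγKO and 0.488 to 0.59 in the other 6 libraries. Lin28b, an RNA-binding protein of early growth, had at most 22 reads and did not pass. Fetal heart genes were not uniformly higher. Of 9, 5 rose and 2 fell, and 4 passed without αHetγWT replicate 1 or without replicate 2, with Acta1 (4.96 ± 0.38), Nppb (4.33 ± 0.34) and Nppa (2.98 ± 0.26) among those that rose, and Cacna1h, a calcium channel gene of the fetal heart, at -2.60 ± 0.11. Myh7, the fetal myosin heavy chain of mouse ventricle, was at -0.12 ± 0.07 and did not pass (edgeR adjusted p = 0.17), with 28.3 and 29.4 RPKM in αKOγKO and 28.3 and 29.4 in αHetγWT.

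Of 21 genes in the pathways in which Grb10, Dlk1 and Cdkn1c act, 8 rose and 4 fell (median 0.03). Over all tested genes, 20.7% rose and 21.5% fell. The IGF1 receptor gene Igf1r, whose product Grb10 binds, rose by 1.28 ± 0.07, with 11.9 and 12.6 RPKM in αKOγKO and 4.59 to 6.33 in the other libraries, while the insulin receptor gene Insr was at -0.01 ± 0.07. Cdkn1a, which encodes p21 and belongs to the same inhibitor family as Cdkn1c, rose by 0.76 ± 0.07, against the fall of Cdkn1c. The Notch pathway, with which Dlk1 interacts, moved both ways. The 4 genes of the list that fell all belong to it. They were Hey1 (-0.84 ± 0.11), Notch1 (-0.65 ± 0.10), Notch4 (-0.62 ± 0.15) and Jag1 (-0.39 ± 0.08). Hes1 and Heyl rose by 0.60 ± 0.11 and 0.45 ± 0.11, and Notch2, Notch3 and Hey2 did not pass.

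Markers of other cell types moved in the same libraries. Their counts are to be read against all tested genes, of which 20.7% rose and 21.5% fell in αKOγKO over αHetγWT. All 6 markers of proliferating cells rose, and their summed RPKM was 13.8 to 33.99 in αKOγKO and 5.35 to 10.6 in the other 6 libraries. Among them, Cdk1 had 7.62 and 3.22 RPKM in αKOγKO and 1.11 to 2.15 elsewhere. Of 10 fibroblast markers 7 rose and 0 fell, with a summed RPKM of 1624 to 2541 in αKOγKO and 895.9 to 1224 elsewhere, and Tcf21, a defining transcription factor of cardiac fibroblasts, had 41.6 and 33.3 RPKM in αKOγKO and 14.7 to 17.4 elsewhere. Cardiomyocyte markers were at 25020 to 31090 summed RPKM in αKOγKO and 38000 to 41880 elsewhere (1 rose and 6 fell of 9), and endothelial markers at 387.1 to 407.6 and 450.7 to 529.0 (1 rose and 5 fell of 8). Pericyte and smooth muscle markers overlapped, at 153.9 to 189.0 in αKOγKO and 169.8 to 208.1 elsewhere (2 rose and 3 fell of 6), as did macrophage markers, at 101.5 to 176.8 in αKOγKO and 82.5 to 121.0 elsewhere (1 rose of 6). That marker, Adgre1, lost its call when any library but αKOγKO replicate 2 was left out, and with αKOγKO and αHetγWT alone (edgeR adjusted p = 0.0573 to 0.265). No epicardial, Schwann cell, erythroid or adipocyte marker passed. The part of these markers in the rise of Mest, Plagl1, Meg3, H19, Ndn, Peg3 and Grb10 or in the fall of Cdkn1c was not tested. Skeletal muscle, where H19 and Meg3 are also high, was near absent, with no Myod1 or Myh4 read in any library and a summed RPKM of at most 0.036 for the 5 skeletal muscle markers. Without αKOγKO replicate 1, the library with Xist reads and the higher Cdk1 level, the same number of 8 of the 10 genes passed in αKOγKO over αHetγWT, and likewise without αKOγKO replicate 2.

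Over the 8 libraries, the genes whose log2 CPM values, depth-scaled counts, ran most closely with a member of the list were Naif1, Jpt2 and Mlec for Meg3 (Pearson r = 0.996, 0.995 and 0.994), Ocel1, Ubap2 and Disp1 for H19 (0.985, 0.981 and 0.972) and Ints14, Stimate and Tiprl for Dlk1 (0.97, 0.958 and 0.953). These values describe 8 libraries that share 4 genotypes. Depth limits those of Dlk1, which had at most 74 reads in any library. Of 11933 genes with a mean of at least 1 RPKM, 1189 had an r above 0.9 with Meg3, 93 with H19 and 13 with Dlk1.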

How the data were processed

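RNA of pooled hearts was sequenced in 8 libraries (TruSeq kit, both ends). For each library the authors deposited whole-number counts of uniquely assigned reads per gene, gene length, a coverage score that the file headers do not define and that was not used, and RPKM. The deposited RPKM equals the count divided by gene length and the library total. The build is mm10 per the submitters' processing notes. The aligner, the counting tool and the use of strand are not given in the sources used here. A gene without a read is missing from that library's table, and its count was set to 0. No column of per-sample values was left unmapped (0).

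Counts were tested with edgeR 4.0.16 (R 4.3.3): filterByExpr (minimum count 10, minimum total 15), TMM, 1 mean per genotype over all 8 libraries (4 residual degrees of freedom), quasi-likelihood F tests, and Benjamini-Hochberg adjustment over 15076 genes with a threshold of 0.05. SE is the log2 fold change divided by the square root of F. Of these steps, the edgeR fit was run on simulated counts, for αKOγKO over αHetγWT only. Alternatives were edgeR with size factors of the DESeq2 kind (RLE) in place of TMM, and the Wald test of DESeq2 1.42.0. Others were limma 3.58.1 on log2(RPKM + 1) and log2(RPKM + 0.1), no filter, and a replicate block. Further runs took αKOγKO and αHetγWT alone, or the mean of the other 3 genotypes in place of αHetγWT. Every library was also left out in turn, after which the remaining library is assumed to vary like the others.

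The members and gene lists were chosen with earlier results of these data known. Named are the 10 genes, up to 4 genes of each list and 2 of each marker list with the smallest adjusted p, Igf2, markers at 0 and the 3 genes most like H19, Dlk1 and Meg3. Gene names come from the RefSeq table of GRCm38.p6. Sequences are from RefSeq, and exons and the spans searched for microRNAs are from GENCODE.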

Additional observations from a re-analysis of the deposited data

Results flagged for a closer look

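In 4 of the 10 genes, and in 3 to 5 over the alternative runs, the effect of cardiac ERRγ loss was not the same in αKO as in αHet hearts, by the interaction term of the edgeR model. Among all tested genes, 17.5% passed for this term, 6.77% positive and 10.7% negative. The difference on the log2 scale, αKO minus αHet, was 1.36 for Mest, 0.88 for Meg3, 0.53 for Peg3 and -1.01 for Cdkn1c. Each value rests on 2 pooled libraries per genotype. The difference of Peg3 passed or failed depending on which library was left out (adjusted p = 0.0537 to 0.126 in the 5 runs where it was lost), while Plagl1 (0.47, adjusted p = 0.0719) passed in 5 other runs (adjusted p = 0.0166 to 0.0491). Mest, Meg3 and Cdkn1c kept their calls in every alternative run. Groups of 2 libraries are too small to look for single outlying libraries.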

How the results depend on the processing

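The count of the 10 genes past the threshold in αKOγKO over αHetγWT was 8, and leaving out each library gave 6 to 8. RPKM without composition scaling put the median log2 fold change of all genes at 0.12 with a pseudocount of 0.1, against 0.01 with TMM, so limma values sit higher by about that much. In αKOγWT over αHetγWT, 0 of the 10 passed, against 2 with the DESeq2 Wald test, 1 without a filter and 0 to 2 with a library left out. With the replicate number as a block, which the labels do not tie to a shared litter or day and along which libraries did not deviate together (r between -0.183 and 0.0884), 1 passed there (Plagl1, adjusted p = 0.0243), 2 of all genes passed in αHetγKO over αHetγWT, where 1 did without it, and 8 of the 10 passed in αKOγKO over αHetγWT. The block also ended the call of Grb10 in αKOγKO over αKOγWT (adjusted p = 0.0521), and Plagl1 passed for the interaction (0.0166). Over all genes, αHetγKO over αHetγWT had 41 calls with DESeq2, 5 without a filter and 1 to 24 with a library left out, and αKOγWT over αHetγWT had 423 with DESeq2 and 14 to 689 with a library left out, against 186. Leaving out a library gave 4204 to 6620 calls for αKOγKO over αHetγWT, 3437 to 5828 over αKOγWT, 3361 to 6178 over αHetγKO and 1263 to 3869 for the interaction. Of the network genes 7 passed with limma at either pseudocount. Of the cluster neighbours 6 passed with αKOγKO and αHetγWT alone and 5 to 10 with a library left out, and of the fetal heart genes 4 to 8.

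Log2 values changed sign in 27 cases, 0 of them past the threshold, from reported values as large as 0.42 (Rtl1, αKOγKO over αHetγKO), 0.39 (Rtl1 interaction) and 0.26 (Dlk1, αKOγWT over αHetγWT). The H19 interaction was 0.044 and 0.043 with limma and -0.17 to 0.021 with a library left out. For αKOγWT over αHetγWT, Meg3 was at -0.0019 and -0.0025 with limma and -0.11 to 0.11 with a library left out, and Rtl1 at -0.0085 with limma (pseudocount 0.1), -0.0014 with the replicate block and -0.73 to 0.53 with a library left out. With a library left out, Dlk1 was at -0.57 to 0.78 and Grb10 at -0.0044 to 0.15 in that comparison. For αHetγKO over αHetγWT the ranges were -0.32 to 0.28 for Dlk1, -0.060 to 0.14 for Peg3 and -0.066 to 0.022 for Grb10. Rtl1 was at -0.089 to 1.30 in αKOγKO over αHetγKO and -0.11 to 1.27 for the interaction. The cause was not tested. Depth limits Dlk1 and Rtl1, and 2 pools per genotype limit all tests.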
